A study of Homo sapiens with 10 samples.

Results

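The short-chain phthalate DProP was set against its relatives DEP and DPP in differentiating human neurospheres, to separate genes that stood apart under DProP from genes that were graded over the 3 compounds. The libraries were taken by their treatment labels alone, 2 each for DProP, DEP and DPP at 100 µM, which is 6 of the 10 libraries of the series. The contrast was the DProP mean minus the average of the DEP and DPP means, so 2 libraries were tested against 4. The other 4 libraries, 2 of a vehicle control with 0.1% DMSO and 2 of a mixture named Mix and labelled 100 µM, entered the fit and share its estimate of the spread. What Mix contained is not stated in the labels.

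Every group was grown from ReNcell VM, a progenitor line of the developing human midbrain that was immortalised with the v-myc oncogene, so the controls carry that gene too. Neurospheres of this line were moved onto laminin and differentiated for 6 days, with fresh medium and compound every 2 days, and each library pooled the RNA of 6 neurospheres. Nothing in the labels tells whether both libraries of a group stem from different cultures, and p values therefore measure only the spread between these libraries, which may be technical. DEP is diethyl phthalate, a solvent and fixative of personal care products. The study describes its other single compounds as linear esters that differ from DEP in the number of carbon atoms. DProP commonly stands for di-n-propyl phthalate, which has propyl chains in place of ethyl. The labels do not spell out DPP, so no structure is given for it, and the compounds are not ordered here by chain length.

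Cells build cholesterol from acetyl-CoA by the mevalonate pathway. When sterol in the endoplasmic reticulum is scarce, the factor SREBP-2, encoded by SREBF2, is cut free and raises transcription of the synthetic enzymes. When oxysterols build up, the LXR receptors raise genes of cholesterol export such as ABCA1. The developing brain makes its own sterol, because lipoproteins of the blood hardly enter it.

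The 6 libraries held 57222381 to 70845673 counts and 19465 genes were tested. The share of counts from mitochondrially encoded genes averaged 0.0909% in DProP and 0.0907% in DEP and DPP (exact permutation test, two-sided p = 1, where 0.0667 is the smallest p that 2 against 4 allows). The defining markers of microglia and blood cells were almost absent, with 9 of 10 under 1 CPM (counts scaled to a common library size with TMM factors) and 3 of those at 0 in every library. Progenitor and astrocyte markers were abundant: their summed level over the 6 libraries ran from 7467 to 7820 CPM and from 7723 to 9185 CPM. Of the oligodendrocyte lineage markers 10 of 15 were under 1 CPM and 2 of them were at 0 in every library. The DProP libraries differed from each other in genes of cell division, which are described at the end. The vehicle libraries had fewer mitochondrial and more MALAT1 counts than all treated libraries. All libraries were made with an exome capture kit, so these shares may not reflect the RNA content of the cells. The labels name no batch, so treatment and batch cannot be told apart, between the compounds or against vehicle. Values against vehicle are given only as description.

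DProP stood apart from the other compounds in few genes. At an edgeR quasi-likelihood adjusted p under 0.05, 36 of the 19465 genes were called, which is 0.185%; 29 were higher under DProP (0.149%) and 7 lower (0.036%). At an unadjusted p under 0.05 there were 2194. Both DProP libraries lay above all 4 others in 28 of the 29, and below them in all 7, where 9.15% and 9.55% of all tested genes had such an arrangement. The genes were called from these same libraries, so this arrangement follows largely from the call and adds no support. At the median gene the 95% interval of this contrast had a half-width of 0.226 (log2). The count rested on single libraries: it was 184 without DProP library 1, of which 27 were among the 36, and 17 without DProP library 2, of which 8 were. It was 15 without DEP library 1 and 13 without DEP library 2.

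The 3 pairs of compounds were also tested, with p values adjusted over genes and pairs together. DProP differed from DEP in 176 genes (0.904%), with 116 higher (0.596%) and 60 lower (0.308%). DProP differed from DPP in 137 genes (0.704%), with 77 higher (0.396%) and 60 lower (0.308%). DPP differed from DEP in 381 genes (1.96%), with 192 higher (0.986%) and 189 lower (0.971%). These pairs share libraries, so their counts are not independent. Of the 36 genes called in the contrast, 15 were also called in both pairs with DProP, 11 of them higher and 4 lower. The other 21 had their DProP mean beyond both other means but passed in at most 1 of the pairs. Of the 381 genes called between DPP and DEP, 338 were classed as graded. In these the contrast was not called and the DProP mean lay between, with DPP highest in 161 and lowest in 177. The class does not ask that DProP differ from DEP or from DPP. Another 29 genes called between DPP and DEP, but not in the contrast, had the DProP mean outside. Without a contrast call a place between is thus near given, and the 338 are no measure of gradation.

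**Figure D1:**
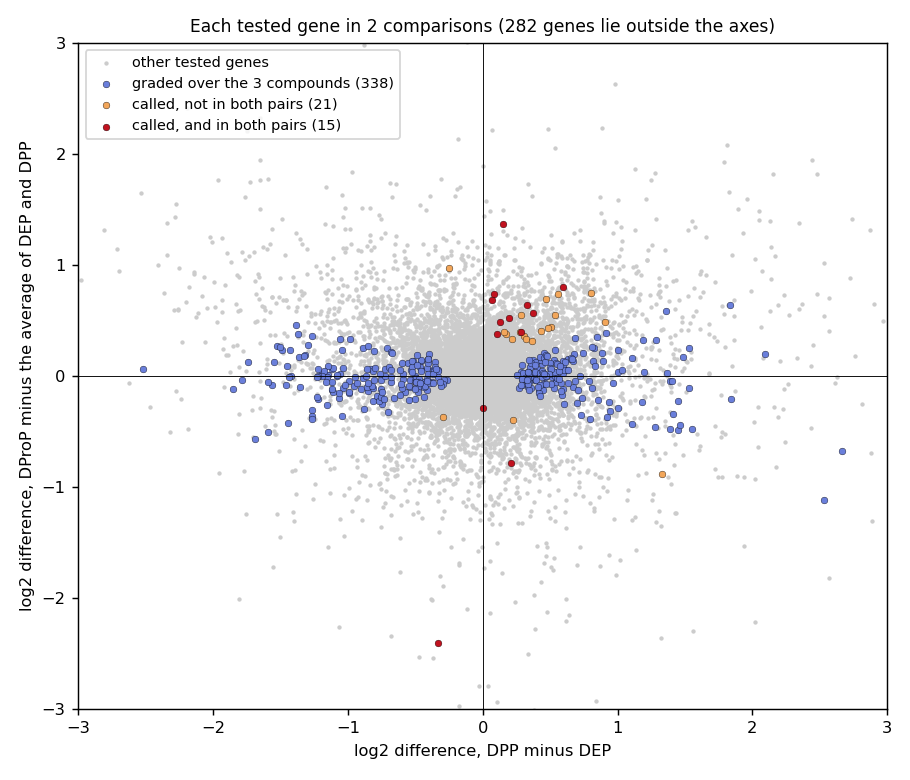
Each point is 1 of the 19465 tested genes. The horizontal axis is the log2 difference of DPP minus DEP and the vertical axis that of DProP minus the average of DEP and DPP, with 282 genes outside the axes. The 338 graded genes spread along the horizontal axis, while the 15 genes called in both pairs (red) and the other 21 called genes (orange) lie above or below it.

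The largest group among the 29 higher genes was cholesterol synthesis. Of a list of 26 genes for synthesis, uptake and their control, 14 were called higher in DProP and 0 lower, against 0.149% of all tested genes. The median log2 difference of the list was 0.37, beside 0.00 over all tested genes. The DProP mean was the highest of the 3 in 24 of the 26 genes, as it was in 32.2% of tested genes. In 20 of them the means ran DEP, DPP, DProP from lowest to highest, an order held by 16.1% of tested genes. Against DEP alone 19 members were higher in DProP and against DPP alone 3, beside 0.596% and 0.396% of all tested genes. DPP exceeded DEP in 11, beside 0.986%, so for most of these genes DPP lay on the same side of DEP. The list medians of these pairs were 0.5, 0.19 and 0.28, beside 0.37 in the contrast. For this list, too, DEP stood low more than DProP stood apart from DPP. The 14 fell to 5 without DEP library 1, 4 without DEP library 2, 2 without DProP library 2 and 9 without DPP library 2, while the median stayed between 0.33 and 0.40 with any 1 of the 6 libraries left out.

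ACAT2, whose product joins acetyl-CoA units at the head of the pathway (chr6:159762045-159779112), differed most. Its level was 64.2 and 77.8 CPM in the DProP libraries, 32.8 and 33.6 in DEP and 55.4 and 44.6 in DPP. Both DProP libraries exceeded all 4 others, and both DPP libraries exceeded both DEP libraries. The contrast was 0.80 ± 0.09 (log2, SE; adjusted p = 0.00578), with 1.10 against DEP (adjusted p = 0.00127) and 0.51 against DPP (adjusted p = 0.0454). The ends of ACAT2 overlap TCP1 and SOD2, neither of which was called (adjusted p = 0.504 and 0.922).

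LSS encodes lanosterol synthase, which closes the rings of the first sterol, lanosterol (chr21:46188446-46228774). It stood at 264 and 257 CPM in DProP, 185 and 174 in DEP and 218 and 219 in DPP. The libraries of the 3 compounds formed 3 separate steps. The contrast was 0.40 ± 0.05 (adjusted p = 0.00578), and DProP exceeded DPP by 0.26 with a 95% interval of 0.14 to 0.37.

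HSD17B7 encodes a ketosteroid reductase of the later pathway (chr1:162790702-162812823). Its level was 30.59 and 30.04 CPM in DProP, 19.1 and 20.4 in DEP and 22.4 and 22.8 in DPP. Here DPP lay much nearer to DEP: the contrast was 0.52 ± 0.06 (adjusted p = 0.00674), while DPP minus DEP was 0.19 with a 95% interval of 0.03 to 0.36 (adjusted p = 0.273). ACAT2, LSS and HSD17B7 were the 3 members called in both pairs.

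DHCR7, which encodes the enzyme of the last step to cholesterol in one branch of the pathway, was picked, after its values were seen, as a case of DProP and DPP lying together. It stood at 179 and 190 CPM in DProP, 124 and 116 in DEP and 186 and 163 in DPP. The DProP and DPP libraries overlapped and DProP minus DPP was 0.08, with a 95% interval of -0.10 to 0.25, whereas DPP exceeded DEP by 0.54 (adjusted p = 0.00954). Its contrast missed the threshold (0.35 ± 0.07, adjusted p = 0.0768).

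Further called members covered each stage. Upstream of the sterols they were HMGCS1 (contrast 0.44), MVD (0.55), IDI1 (0.33), FDPS (0.38) and FDFT1 (0.36). After ring closure there was MSMO1 (0.40), a demethylation enzyme. Outside the enzymes there were the sterol carrier STARD4 (0.43) and INSIG1 (0.33), which holds the SREBP complex in the endoplasmic reticulum. None of these 8 was called between DProP and DPP. Genes that missed the threshold in the contrast included MVK (0.58, adjusted p = 0.0543), SQLE (0.29, adjusted p = 0.0553) and NSDHL (0.38, adjusted p = 0.0717). SREBF2 itself was at 0.09 with a 95% interval of -0.02 to 0.21. PMVK was the one member with a negative difference, at -0.18 (adjusted p = 0.351). Genes that overlap called members were not called themselves: WDR37 beside IDI1 and RUSC1-AS1 beside FDPS had adjusted p values of 0.917 and 0.976. FDPS and HSD17B7 have pseudogene copies elsewhere, and how reads with several matches were counted is not stated in the labels.

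**Figure D2:**
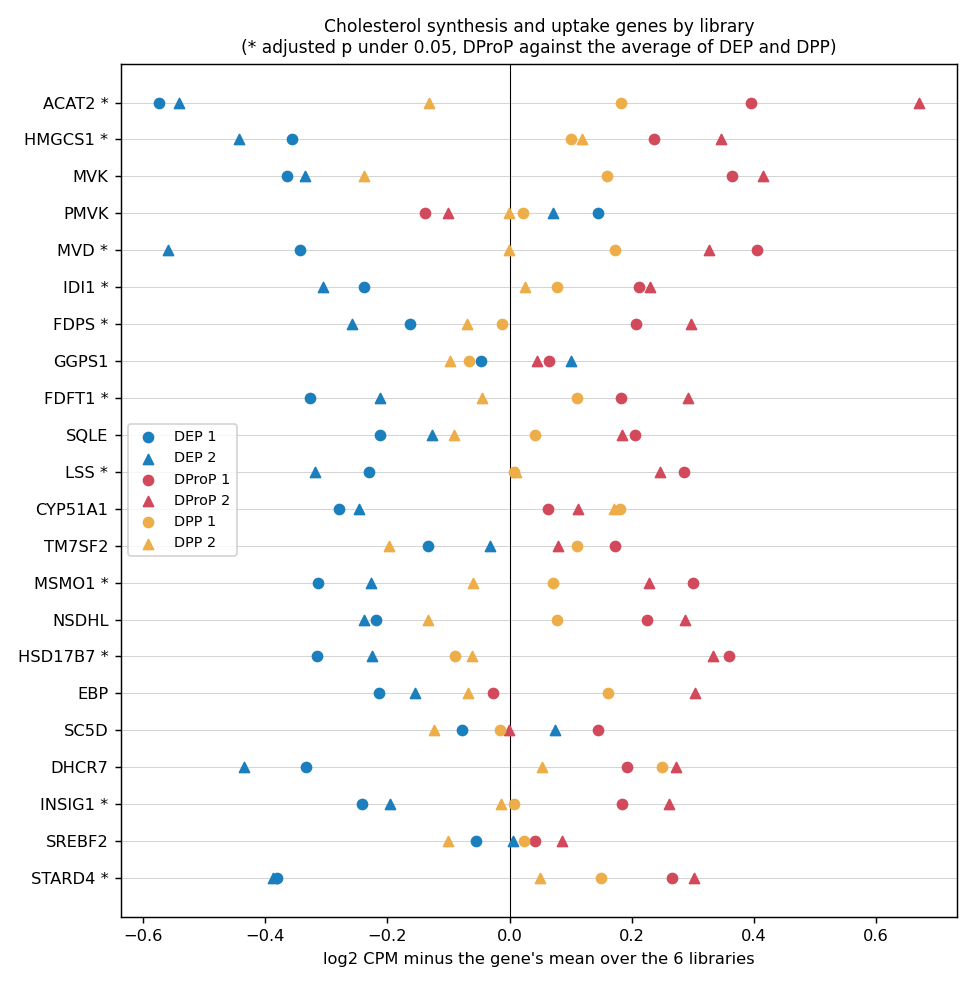
Each row is 1 of 22 genes of the cholesterol list, and each symbol 1 library, placed by its log2 CPM minus the gene's mean over the 6 libraries. DEP (blue) lies to the left and DProP (red) to the right in most rows, with DPP (orange) between them or beside DProP as for DHCR7. Asterisks mark called genes, 11 of those drawn.

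Genes outside the list but tied to sterols or lipids were among the 29 as well. PNPLA3, a lipid droplet hydrolase under SREBP control, was at 18.8 and 21.5 CPM in DProP, 9.21 and 9.04 in DEP and 15.4 and 16.3 in DPP. All 3 groups were separate, and the contrast was 0.75 ± 0.08 (adjusted p = 0.00578). TMEM97, a sterol-responsive membrane protein known as the sigma-2 receptor, was at 36.9 and 45.5 CPM in DProP, 24.8 and 26.3 in DEP and 33.1 and 29.0 in DPP. DProP was highest and DEP lowest without overlap, and the contrast was 0.55 ± 0.09 (adjusted p = 0.0396). The call was kept in 2 of the 6 fits with a library left out (adjusted p up to 0.427 over all alternatives).

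Because the enzymes moved together, the 250 bases before their start sites were read from RefSeq (GRCh38.p14), 1 start per gene, at the outer end of the gene where listed. A promoter was found for 19 of the 26 list members and 9 of the 14 called ones, ACAT2 and FDFT1 not among them. The motif CCAAT, the core site of the factor NF-Y that acts beside SREBP at sterol promoters, was searched on both strands. It was present in 8 of the 9 (88.9%), in 14 of the 19 (73.7%) and in 33.1% of 27305 promoters of the same length. The sterol element TCACNCCAC was in 0 of the 9, in 1 of the 19 and in 0.868% of all promoters, and no match says only that these letters are not in this window. The motifs were chosen with the called genes known, and a match describes the sequence without showing a site in use. The promoters of LSS and HSD17B7, called in both pairs, and of MSMO1 and MVD, which with FDPS had the most matches among the called members, are written 5′ to 3′ on the gene's strand with CCAAT or its reverse complement in capitals.
LSS (chr21:46228775-46229024, minus strand): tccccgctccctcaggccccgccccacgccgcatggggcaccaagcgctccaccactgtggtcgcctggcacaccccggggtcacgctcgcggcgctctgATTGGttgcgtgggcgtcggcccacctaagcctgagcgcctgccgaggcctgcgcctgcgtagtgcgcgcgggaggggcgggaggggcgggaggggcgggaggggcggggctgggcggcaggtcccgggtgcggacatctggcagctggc
HSD17B7 (chr1:162790452-162790701, plus strand): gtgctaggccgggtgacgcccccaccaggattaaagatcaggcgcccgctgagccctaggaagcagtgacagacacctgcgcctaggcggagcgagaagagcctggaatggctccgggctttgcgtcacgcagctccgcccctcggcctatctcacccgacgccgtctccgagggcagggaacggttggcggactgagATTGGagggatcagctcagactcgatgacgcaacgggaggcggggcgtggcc
MSMO1 (chr4:165327419-165327668, plus strand): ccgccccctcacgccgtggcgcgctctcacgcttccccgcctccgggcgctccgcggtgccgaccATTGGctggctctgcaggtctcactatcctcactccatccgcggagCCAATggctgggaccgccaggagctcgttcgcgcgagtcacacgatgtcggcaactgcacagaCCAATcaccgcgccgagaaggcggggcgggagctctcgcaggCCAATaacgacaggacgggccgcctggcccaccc
MVD (chr16:88663092-88663341, minus strand): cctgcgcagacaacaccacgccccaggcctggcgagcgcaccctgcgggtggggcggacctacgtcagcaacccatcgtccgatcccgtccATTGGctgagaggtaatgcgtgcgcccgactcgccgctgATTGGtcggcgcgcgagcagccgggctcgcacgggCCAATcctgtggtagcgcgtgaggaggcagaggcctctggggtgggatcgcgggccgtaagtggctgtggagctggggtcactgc
LSS and HSD17B7 held 1 match each, MSMO1 4 and MVD 3.

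Of 11 tested LXR target and cholesterol export genes, 1, ABCA1, was called lower in DProP and 0 higher, beside 0.036% and 0.149% of all tested genes. The list median was -0.33, beside 0.00 over all tested genes, and 3 of the 11 differences were positive. Against DEP alone 4 members were lower in DProP and against DPP alone 0, beside 0.308% of all tested genes in each pair. The list medians of these pairs were -0.39 and -0.13. DPP itself was lower than DEP in 1 member, beside 0.971% of all tested genes, at a median of -0.28. For this list DEP thus stood high, more than DProP stood apart from DPP. The DProP mean was the lowest of the 3 in 7 of the 11, as in 31.5% of tested genes. At an unadjusted p under 0.05, 6 were lower and 1 higher, beside 5.27% and 6% of all tested genes, and DESeq2 called 3 lower. ABCA1, the transporter that loads cholesterol onto apolipoproteins (chr9:104781006-104928155), was at 589 and 543 CPM in DProP, 833 and 794 in DEP and 642 and 681 in DPP. It was lowest in DProP, next in DPP and highest in DEP, without overlap. The contrast was -0.37 ± 0.06 (adjusted p = 0.0474) and ABCA1 passed in 1 of the 6 fits that left out a library, with adjusted p up to 0.438 over all alternatives. With library size alone as the scaling it missed the threshold too (adjusted p = 0.0526). SREBF1, the LXR-driven gene of SREBP-1c, had a difference of -0.56 (adjusted p = 0.171), APOE of -0.56 (adjusted p = 0.261), APOC1 of -1.11 (adjusted p = 0.141) and LPCAT3 of -0.33 (adjusted p = 0.141). RNF145, a sterol-linked ubiquitin ligase of the endoplasmic reticulum that is not on the list, was at 63.5 and 65.5 CPM in DProP, 80.3 and 77.3 in DEP and 90.6 and 93.4 in DPP. DPP was highest and DProP lowest, with a contrast of -0.40 ± 0.06 (adjusted p = 0.0268), which missed the threshold in all 6 fits with a library left out (adjusted p up to 0.189).

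GAD1, which encodes the enzyme that makes the transmitter GABA from glutamate (chr2:170813210-170861151), was high under DProP while DEP and DPP lay close together. Its level was 60.7 and 71.8 CPM in DProP, 36.2 and 41.1 in DEP and 40.2 and 41.6 in DPP, and both vehicle libraries (43.0 and 41.5) lay with DEP and DPP. Only Mix, at 55.1 and 55.5 CPM, came near DProP. The contrast was 0.74 ± 0.07 (adjusted p = 0.00334), or 0.78 against DEP and 0.70 against DPP (adjusted p = 0.00195 and 0.00314). DPP minus DEP was 0.08, with a 95% interval of -0.11 to 0.27. The GAD1 call held in all 6 fits with a library left out.

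PRUNE2 (chr9:76611376-76906114), a gene with high expression in the nervous system, was at 117 and 109 CPM in DProP, 67.5 and 66.3 in DEP and 85.2 and 87.7 in DPP. The 3 groups formed steps, with a contrast of 0.57 ± 0.06 (adjusted p = 0.00495) and DPP above DEP by 0.37 (adjusted p = 0.0339). CDHR1, a cadherin best known from photoreceptors, was at 24.4 and 27.2 CPM in DProP, 14.1 and 15.6 in DEP and 19.3 and 18.0 in DPP (contrast 0.63 ± 0.08, adjusted p = 0.00655). PTGDS, the prostaglandin D synthase of glia and meninges (chr9:136977504-136981742), was at 108 and 106 CPM in DProP, 74.0 and 73.1 in DEP and 87.9 and 72.7 in DPP. Both DProP libraries exceeded the 4 others, among which DEP and DPP overlapped, and the contrast was 0.48 ± 0.07 (adjusted p = 0.0268). In vehicle and Mix PTGDS was higher still, at 148 to 171 CPM. The same chromosome holds LCNL1 next to it, a lipocalin-like gene at 136982993 to 136985758, which had a contrast of 0.68 ± 0.10 (adjusted p = 0.0211). LCNL1 passed in 2 of the 6 fits with a library left out (adjusted p up to 0.145).

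CSPG4 encodes NG2, a proteoglycan of oligodendrocyte precursors and pericytes. It was at 7.05 and 7.30 CPM in DProP, 4.17 and 3.37 in DEP and 5.26 and 5.18 in DPP, and at 7.27 and 7.62 in Mix. The contrast was 0.69 ± 0.11 (adjusted p = 0.033), and it passed in 1 of the 6 fits with a library left out. No other of the 10 tested oligodendrocyte lineage genes was called: OLIG1 had a difference of -0.84 (adjusted p = 0.31) and PDGFRA of 0.40 (adjusted p = 0.538). MGAM2, a maltase-glucoamylase relative, was at 3.37 and 3.51 CPM in DProP, 1.34 and 1.19 in DEP and 1.16 and 1.65 in DPP, and 3 of 6 such fits called it (contrast 1.37 ± 0.20, adjusted p = 0.0179). UAP1L1 had a contrast of 0.74 (adjusted p = 0.0067), GARIN1B of 0.97 (adjusted p = 0.0306) and AKAP12, a scaffold of protein kinase A, of 0.39 (adjusted p = 0.033). GARIN1B passed in 1 of the 6 fits with a library left out (adjusted p up to 0.178), and missed the threshold with the replicate block (0.0523) and in the fit of the 6 libraries alone (0.0646), as did CSPG4 (0.0546 and 0.0698). CDC25B, a phosphatase that starts mitosis, was called in both pairs and had a contrast of 0.38 (adjusted p = 0.0268). Genes of cell division differed between the DProP libraries, as described at the end. Fits with a library left out are not given for CDC25B. In neurospheres, more cells of a type and more RNA per cell cannot be told apart.

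Among the 7 lower genes, MT1X and SOD1 were low in DProP against both DEP and DPP. MT1X is a metallothionein, a small protein that binds zinc and copper (chr16:56682470-56684196). It was at 17.4 and 15.9 CPM in DProP, 27.1 and 26.4 in DEP and 30.04 and 31.7 in DPP, with both DPP libraries above both DEP libraries. The vehicle libraries, at 11.2 and 14.1, and the Mix libraries, at 13.3 and 15.7, lay below all of these, so DProP stood nearer to them than DEP and DPP did. The contrast was -0.78 ± 0.10 (adjusted p = 0.00961), and it was called in 3 of the 6 fits with a library left out (adjusted p up to 0.14). Of the 9 tested metallothioneins and zinc exporters MT1X alone was called, beside 0.036% of all tested genes called lower. At an unadjusted p under 0.05, 5 were lower and 1 higher, beside 5.27% and 6% of all tested genes, and the list median was -0.40. MT2A was at 118 and 107 CPM in DProP, 167 and 160 in DEP and 190 and 237 in DPP, without overlap, but missed the threshold (-0.73 ± 0.16, adjusted p = 0.181). Metallothionein genes are near copies of one another, so reads may be shared among them. The MT1X promoter is shown because metal response elements drive this family, with matches to TGCACNC or TGCGCNC on either strand in capitals, a motif present in 24.7% of all promoters.
MT1X (chr16:56682220-56682469, plus strand): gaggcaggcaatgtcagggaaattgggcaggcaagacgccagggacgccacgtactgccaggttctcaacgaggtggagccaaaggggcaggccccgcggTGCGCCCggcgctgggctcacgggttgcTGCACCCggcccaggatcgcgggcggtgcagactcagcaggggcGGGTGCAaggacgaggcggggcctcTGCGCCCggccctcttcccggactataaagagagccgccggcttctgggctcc
It held 4 matches.

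SOD1, the copper and zinc superoxide dismutase (chr21:31659693-31668931), was at 113 and 117 CPM in DProP, 139 and 143 in DEP and 146 and 137 in DPP. Both DEP libraries lay between the DPP libraries, and DPP minus DEP was 0.00 with a 95% interval of -0.12 to 0.13. DProP was at -0.29 from DEP and -0.30 from DPP (adjusted p = 0.0369 and 0.0349), and the contrast was -0.29 ± 0.05 (adjusted p = 0.0474). The difference is small and the call was missed in all 6 fits with a library left out and held in 4 of 8 other settings (adjusted p up to 0.285). HBEGF, a growth factor of the EGF family, was called lower for another pattern. It was at 6.04 and 5.77 CPM in DProP, 7.56 and 6.18 in DEP and 18.0 and 16.6 in DPP, so DPP alone stood high. DProP minus DEP was -0.22 with a 95% interval of -0.53 to 0.09, whereas DPP exceeded DEP by 1.33 (adjusted p = 0.00147). The contrast call of HBEGF held in 4 of the 6 fits with a library left out, and was lost without DEP library 1 (adjusted p = 0.0851) and without DProP library 2 (adjusted p = 0.167).

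**Figure D3:**
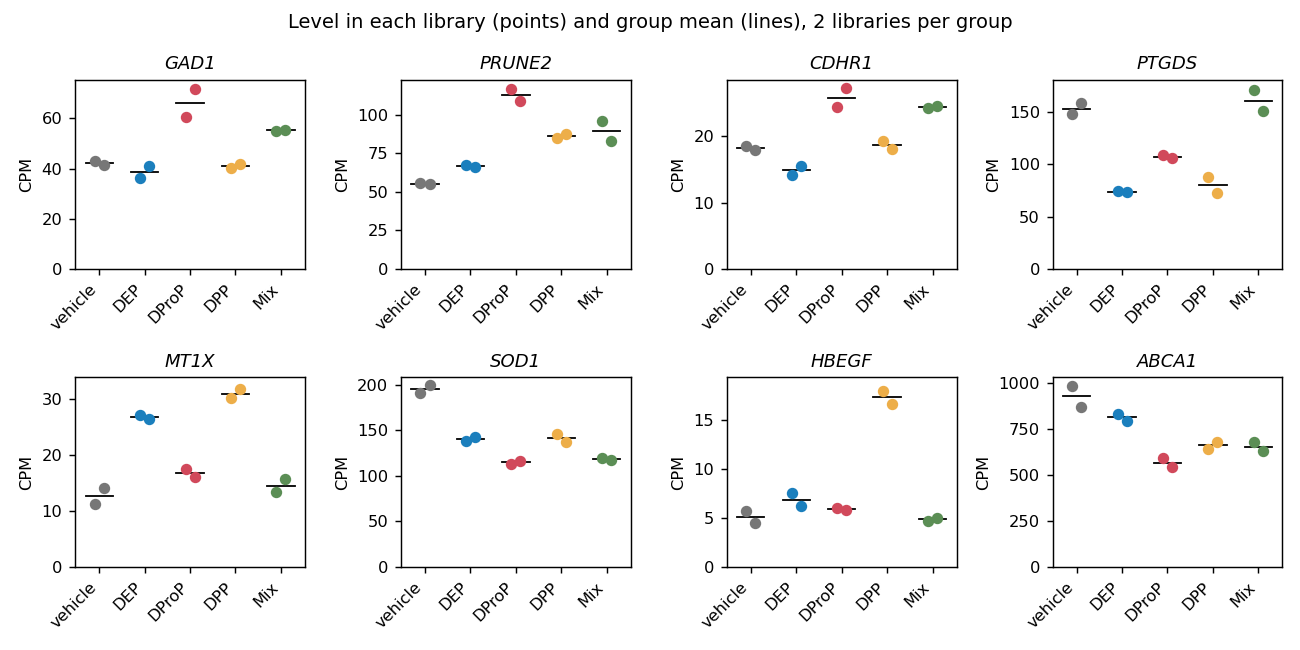
Level in CPM of 8 called genes in each library, with the 5 groups on the horizontal axis, 2 points per group and a line at the group mean. GAD1, PRUNE2, CDHR1 and PTGDS are higher in DProP than in DEP and DPP, MT1X, SOD1 and ABCA1 are lower, and HBEGF is high in DPP alone.

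The largest called differences among genes of at least 1 CPM came from a pair of genes that lie on top of each other. TNNI3K, a heart-enriched kinase (chr1:74235387-74544428), had 178 and 216 counts in the DProP libraries and at most 5 in any of the other 8, and its contrast was called (adjusted p = 0.00792). FPGT-TNNI3K is a read-through gene that spans it (chr1:74198242-74544428), and fell from 3.91 and 3.32 CPM in DEP and 3.17 and 2.57 in DPP to 0.523 and 0.683 in DProP, a contrast of -2.41 ± 0.21 (adjusted p = 0.00138). Summed over both genes, the level was 3.53 and 3.63 CPM in DProP, 3.91 and 3.40 in DEP and 3.17 and 2.64 in DPP. The sums overlapped between DProP and DEP. The calls of the pair thus had opposite signs with little difference in the sum, and how reads over overlapping genes were assigned, strand included, is not stated in the labels.

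**Figure D4:**
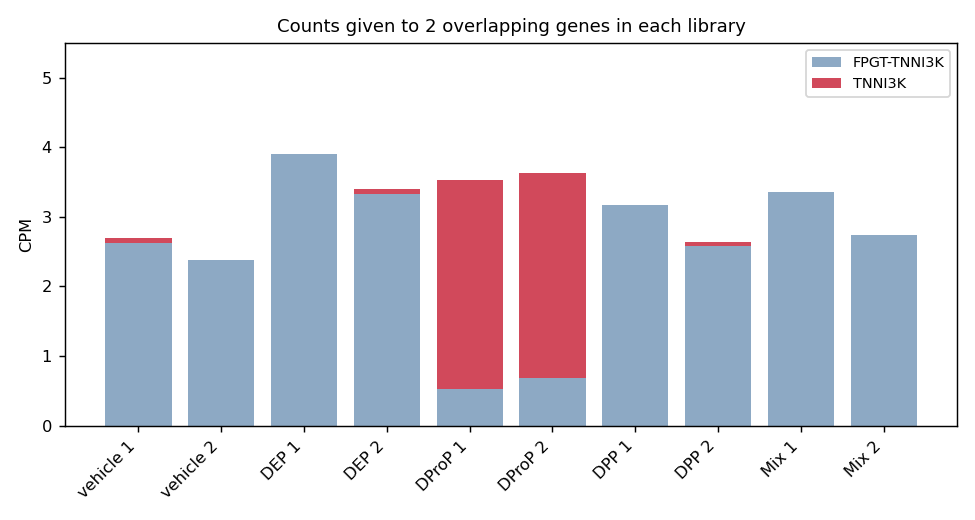
Stacked bars of the level in CPM assigned to FPGT-TNNI3K (blue) and TNNI3K (red) in each of the 10 libraries. The DProP bars are mostly red and all others almost wholly blue, while the total height in DProP, 3.53 and 3.63 CPM, is close to that in DEP.

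A similar limit holds for TNFAIP8L2 and LOC107985405, which were called at under 1 CPM, overlap other genes and are named after their values were seen. TNFAIP8L2 had 33 and 31 counts in DEP, 36 and 43 in DPP and 0 in both DProP libraries, where 0 allows up to 0.0506 and 0.041 CPM. It was also at 0 in the vehicle and Mix libraries. LOC107985405 had 0 counts in both DPP libraries, which allows up to 0.0419 and 0.0454 CPM, and 22 to 41 in the other 8.

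Graded genes give the contrast to these. Many neuronal markers were highest in DEP and lowest in DPP: of 30 tested, 13 were lower and 1 higher in DPP than in DEP, beside 0.971% and 0.986% of all tested genes, with a median of -0.84. In 21 of the 30 the DProP mean lay between in that order, which 18.4% of all tested genes showed. Relative to each gene's mean over the 6 libraries, the list stood at 0.26 and 0.44 in DEP (log2). It stood at -0.05 and 0.02 in DProP and at -0.14 and -0.53 in DPP. DPP library 1 thus lay nearer to DProP than to DPP library 2, and the step from DProP to DPP rested largely on DPP library 2. In the contrast of DProP with the average, edgeR called 0 of the 30, with 1 higher and 2 lower at an unadjusted p under 0.05; limma-voom called 0 and DESeq2 1 higher. DCX, a microtubule protein of young neurons, was at 128 and 146 CPM in DEP, 90.0 and 87.5 in DProP and 78.3 and 55.3 in DPP. Its DPP minus DEP difference was -1.04 (adjusted p = 0.0086) and its contrast -0.11 (adjusted p = 0.793). EBF2, a transcription factor of early neurons, was at 27.8 and 29.9, then 18.8 and 18.9, then 12.7 and 12.1 CPM in the same order. Its DPP minus DEP difference of -1.22 had the smallest p of the falling genes (adjusted p = 0.000281), and its contrast had a 95% interval of -0.16 to 0.15. EPB41 (-0.83) and NSG2 (-1.22) also fell from DEP to DPP.

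Graded genes that were highest in DPP included HAP1, a partner of huntingtin, at 14.57 and 13.99 CPM in DEP, 23.3 and 24.1 in DProP and 27.6 and 29.8 in DPP. SLC2A1, the glucose transporter GLUT1, was at 73.7 and 69.3, 97.2 and 100, and 114 and 113 CPM in that order. For both, DProP lay nearer to DPP, and DPP exceeded DEP by 1.01 and 0.67 (adjusted p = 0.000913 and 0.00112). NIBAN2 lay the other way, with DProP at 46.3 and 53.3 CPM, close to DEP at 45.2 and 44.4 and far from DPP at 86.8 and 85.8. Large differences between DPP and DEP were in HMGA2 (2.67), a chromatin protein of stem cells, and the stress cytokine GDF15 (1.84), and downward in XKR7 (-1.85) and DUSP26 (-1.79). HMGA2 and DUSP26 were called in all 6 fits with a library left out, and GDF15 and XKR7 in 5, each missing the threshold without DEP library 2 (adjusted p = 0.0541 and 0.0628). The calls of SRPX2 (1.83, adjusted p = 0.0351), IQSEC3 (-1.74, adjusted p = 0.0194) and the sterol exporter ABCG1 (-1.69, adjusted p = 0.0173) were less stable, and held in 3, 4 and 4 of those fits (adjusted p up to 0.233, 0.196 and 0.148). SRPX2 was also missed by limma-voom (adjusted p = 0.0736), and SRPX2 and ABCG1 in the fit of the 6 libraries alone (adjusted p = 0.095 and 0.0739).

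Genes of cell division separated the DProP libraries from each other. All 34 tested cell cycle genes were higher in DProP library 2 than in DProP library 1. The share of all tested genes with that order was not taken. Relative to each gene's mean over the 6 libraries, the list stood at -0.16 in DProP library 1 and 0.96 in library 2, at -0.52 and -0.47 in DEP and at 0.01 and 0.17 in DPP (log2). MKI67, a marker of dividing cells, was at 42.7 and 119 CPM in DProP, 30.7 and 30.2 in DEP and 47.5 and 58.0 in DPP, so DProP library 1 lay between DEP and DPP. The list median of the contrast was 0.74, with edgeR calling 0 of 34 genes, limma-voom 0 and DESeq2 4. At an unadjusted p under 0.05 in edgeR, 19 were higher and 0 lower, beside 6% and 5.27% of all tested genes. Without DProP library 1 the list median was 1.17, and without DProP library 2 it was -0.03. DNA replication genes followed, with all 30 higher in DProP library 2, as did all 27 tested replication-dependent histones. The cholesterol genes were level between the same libraries, at 0.22 and 0.27.

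**Figure D5:**
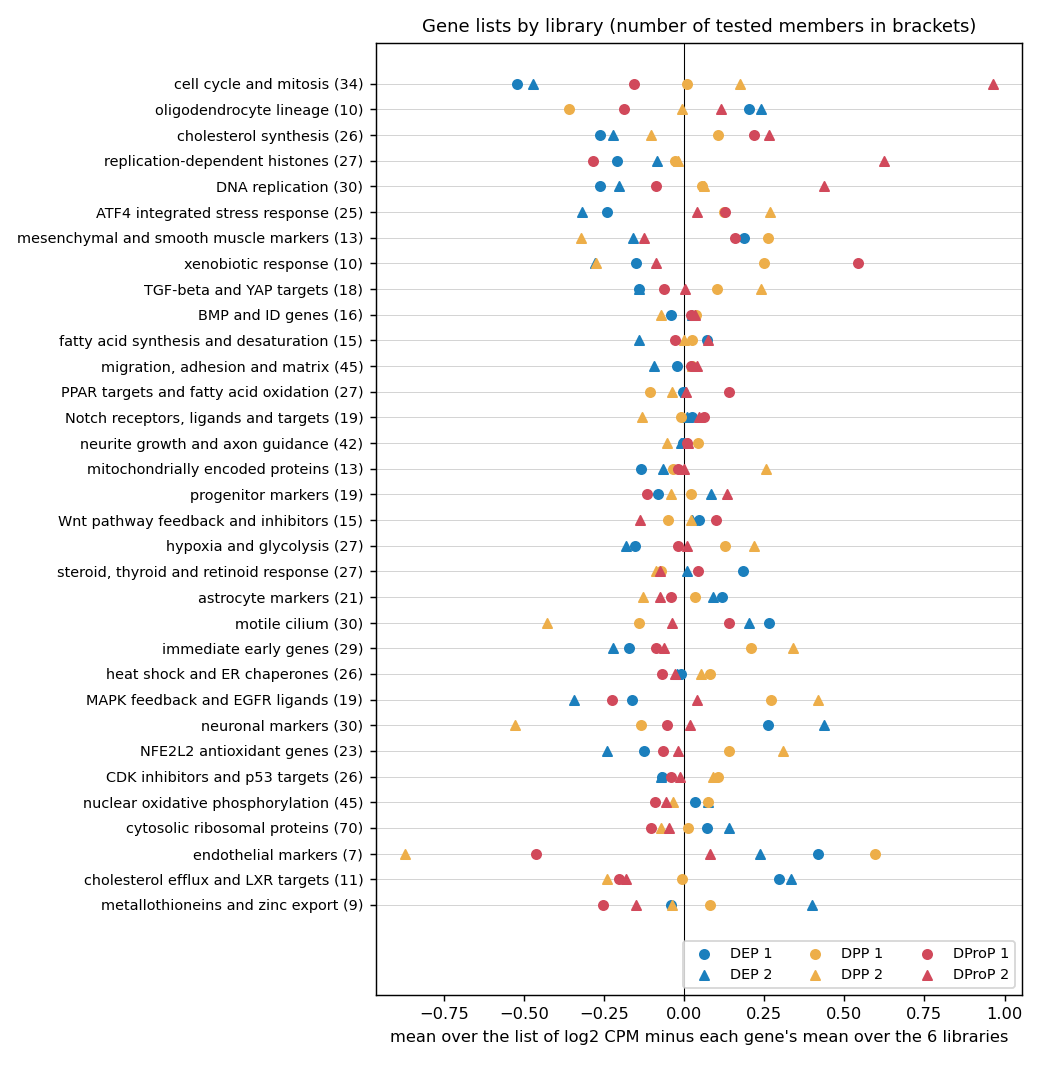
Each row is a gene list with at least 5 tested members and each symbol 1 library, placed by the list's mean log2 CPM relative to each gene's mean over the 6 libraries, with rows ordered by the median of the contrast. The red symbols of DProP lie together at the right for cholesterol synthesis (0.22 and 0.27) but far apart for cell cycle and mitosis (-0.16 and 0.96).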

How the data were processed

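RNA was measured by sequencing with an exome capture kit (SureSelect RNA Direct), per the labels' protocols. The authors deposited raw read counts per gene identifier, which sum to different totals and carry no normalisation. Per the submitters' processing notes, the tools were HISAT2 2.1.0 and StringTie 2.1.3b, with Trimmomatic 0.38, FastQC, R 4.3.2 and edgeR 4.0.9, on GRCh38. The counter, annotation and strand setting were not given in the sources used here. Of 46427 identifiers, 44698 matched RefSeq, and 1729 did not.

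Counts were fitted with edgeR 4.0.16 in R 4.3.3 (filterByExpr by group, TMM scaling, robust quasi-likelihood, a mean for each of 5 groups, 5 residual degrees of freedom), which kept 19465 genes. Adjusted p values follow Benjamini and Hochberg, over genes for the contrast and over 58395 p values for the 3 pairs, with a threshold of 0.05 and no fold minimum. Standard errors were derived from the F statistic. Libraries held 57222381 to 72973100 counts, with a common biological coefficient of variation of 9.4%. Members, pairs and the 34 gene lists were chosen with earlier results of these data known, so no list was given a test. Of genes past the threshold at a mean of at least 1 CPM and without overlap between groups, the rule named the 12 largest differences each way, up to 4 members of any list with 3 or more called, the 4 largest for DPP against DEP each way and the 3 graded genes of smallest p each way. Other called genes, list members near the threshold, DCX, HMOX1 and MKI67 were named after their values were seen. Some genes of the rule and lists are not reported here by name, but are in the counts. Alternatives comprised RLE factors, plain library size, no filter, 1 CPM in 2 libraries, limma-voom (limma 3.58.1), DESeq2 1.42.0, a fit of the 6 libraries alone, a replicate block, a 2-fold minimum and leaving out each library, where the lone library of a group is taken to vary like the other groups. In simulated data for this contrast, edgeR recovered 53.8% of 65 genes shifted by 0.5 (log2), 62.5% of 64 shifted by 1 and 81.7% of 71 shifted by 2, and called 0.0571% of 19265 unshifted genes.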

Additional observations from a re-analysis of the deposited data

Results flagged for a closer look

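For 6 called genes, both DProP libraries lay on one side of the vehicle libraries' mean and the DEP and DPP libraries on the other. The share of all tested genes with this arrangement was not taken. Called genes already had the DProP mean beyond both other compounds, so it needs only that vehicle falls in the gap. The difference between the compounds is the contrast itself, tested with edgeR. MGAM2 had a contrast of 1.37, with DProP 0.63 above vehicle, DEP at -0.81 and DPP at -0.66 (log2). GARIN1B had 0.97, UAP1L1 0.74 and CSPG4 0.69, with DEP at -0.50, -0.72 and -0.71 against vehicle. With a library left out, the contrast was called in 3 of 6 fits for MGAM2, 1 for GARIN1B, 5 for UAP1L1 and 1 for CSPG4. GAD1 had 0.74, with DProP at 0.65 against vehicle, DEP at -0.13 and DPP at -0.05. FPGT-TNNI3K had -2.41, with DProP at -2.04, DEP at 0.53 and DPP at 0.20. All of these share the vehicle libraries, which stood apart in their RNA classes (mitochondrial share 0.0255% and 0.0343%, against 0.0825% to 0.107% in treated libraries), and their part in these values was not tested.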

How the results depend on the processing

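No gene named by the rule changed sign under any alternative run. For the genes named by largest difference the rule asked for no overlap between groups. Leaving out a library could therefore not turn their sign, and the kept signs are no support. The balance of higher to lower calls was less stable. In the contrast (29 to 7) it kept its sign throughout but was 9 to 8 without DProP library 2. DProP against DEP (116 to 60) became 137 to 144 without DPP library 1. DProP against DPP (77 to 60) became 63 to 77 in the fit of the 6 libraries alone, 16 to 20 with a 2-fold minimum, and 14 to 22, 11 to 17, 17 to 33 and 14 to 19 without DEP library 1, DEP library 2, DProP library 2 and DPP library 2. DPP against DEP was nearly even (192 to 189) and turned in 9 of 15 alternatives, for example to 191 to 195 with RLE factors and 199 to 325 without DPP library 1. The medians of the cell cycle, DNA replication and histone lists turned from 0.74, 0.26 and 0.28 to -0.03, -0.04 and -0.25 without DProP library 2. The 36 genes of the contrast became 85 under the stricter filter, 59 with limma-voom, 247 with DESeq2 (33 of the 36 shared) and 5 with a 2-fold minimum, and 13 to 184 with 1 library left out. The 15 genes called in both pairs became 31, 74 and 4 under the stricter filter, DESeq2 and the 2-fold minimum, and 2 to 71 with 1 library left out. DProP against DEP (176) became 321, 642 and 33 under the same 3 settings and 16 to 281 with 1 library left out. DProP against DPP (137) became 231, 506 and 36, and 28 to 198. DPP against DEP (381) became 608, 997 and 104, and 48 to 524. The 14 cholesterol genes became 0 with a 2-fold minimum in edgeR and 2 to 13 with 1 library left out, against 16 with limma-voom and 18 with DESeq2. The cause of these shifts was not tested. With the replicate block the contrast called 30 genes, 28 of them shared, and no other count moved by over 1.5 times. Replicate numbers did not tie libraries of different groups together: over genes, the correlations between groups of the differences within groups ran from -0.0465 to 0.0471 in the 10 pairs of groups. With 2 libraries per group at this depth, the unadjusted 95% interval of the contrast had a half-width of 0.226 (log2) at the median gene. Smaller differences are unresolved for a typical gene, and larger ones can miss the adjusted threshold too. In the simulated data edgeR called 53.8% of the genes shifted by 0.5. An exact test of single values cannot go below 0.0667.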

Other observations

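In other gene groups DPP differed from DEP, and DProP lay between them or beside 1 of them. In DPP against DEP, 7 of 29 immediate early genes, 6 of 19 genes of MAPK feedback and EGFR ligands, 9 of 23 NFE2L2 antioxidant genes, 9 of 27 genes of hypoxia and glycolysis and 7 of 25 ATF4 stress response genes were higher, beside 0.986% of all tested genes, and none was lower. HMOX1, the heme oxygenase of the antioxidant response, was at 49.7 and 48.6 CPM in DEP, 61.0 and 54.5 in DProP and 82.7 and 105 in DPP (DPP minus DEP 0.94, edgeR adjusted p = 0.00396). In the contrast of DProP with the average, edgeR called 1 gene of these 5 lists, HBEGF. For the ATF4 list, DProP lay on the side of DPP. In it 6 members were higher in DProP than in DEP and 1 lower in DProP than in DPP, beside 0.596% and 0.308% of all tested genes.

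Of 70 cytosolic ribosomal protein genes edgeR called 0 in the contrast, limma-voom 0 and DESeq2 2 lower, with 25 lower and 0 higher at an unadjusted p under 0.05, beside 5.27% and 6% of all tested genes. The DProP mean was the lowest in 50 of the 70, as in 31.5% of all tested genes, and the median was -0.12. Of 45 nuclear genes of oxidative phosphorylation edgeR called 0, limma-voom 1 lower and DESeq2 2 lower, with 14 lower at an unadjusted p under 0.05, and the DProP mean was lowest in 36, beside the same 5.27% and 31.5%. Of the 13 mitochondrially encoded proteins, 0 were called by edgeR, limma-voom or DESeq2 and 0 passed at an unadjusted p under 0.05, with 5 differences positive and a median of -0.01. Of 30 motile cilium genes, 6 were lower in DPP than in DEP, beside 0.971% of all tested genes. In 18 of the 30 the means ran DPP, DProP, DEP from lowest to highest, as in 18.4% of all tested genes.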
